A study of Mus musculus with 31 samples.

Results

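The genes described are 9 markers of the cerebellum, namely the granule cell genes Neurod1, Zic1, Cbln1 and Cbln3, the Purkinje cell genes Pcp2, Calb1 and Car8, and in addition Pvalb and En2. They were taken by name from the platform annotation, in which all 9 were present with 1 probe each, out of 15096 named genes. The tested RNA came from whole brains of 31 BXD/TyJ strains, recombinant inbred mouse lines bred from C57BL/6J and DBA/2J, and the reference was C57BL/6J whole-brain RNA on the same 2-colour glass array. All animals were males aged 8 weeks, and each strain was represented by 1 array of RNA pooled from 3 animals, so strain and array cannot be told apart and p-values measure the spread between arrays. The reference stands for 1 control sample, and a mean against 0 leaves out its own spread. Of the strains, 7 had numbers from 33 to 42 and 24 had numbers up to 32.

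The cerebellar cortex is built around a simple circuit. Granule cells, the most numerous neurons of the brain, send parallel fibres to Purkinje cells, which form the only output of the cortex. At that synapse granule cells release cerebellin-1, the product of Cbln1, which bridges presynaptic neurexin and the delta-2 glutamate receptor of the Purkinje cell. In mouse, cerebellin-3 is made by the same granule cells, assembles with cerebellin-1 and depends on it for export from the endoplasmic reticulum. Neurod1 encodes a basic helix-loop-helix transcription factor of granule cell differentiation and Zic1 a zinc finger factor of granule cell precursors. Pcp2 encodes a regulator of G protein signalling found in Purkinje cells and retinal bipolar cells, Calb1 the calcium buffer calbindin, and Car8 a carbonic anhydrase relative that lacks enzyme activity and binds the IP3 receptor. Pvalb encodes the calcium buffer parvalbumin of Purkinje cells and inhibitory interneurons, and En2 a homeobox factor of the midbrain and hindbrain territory. Several of these genes are also expressed outside the cerebellum, Calb1 and Pvalb in forebrain neurons and Neurod1 in the dentate gyrus among them. In whole-brain RNA, fewer cells of a type and less RNA per cell cannot be told apart.

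Values are log ratios, taken as log2. The likely direction is strain over C57BL/6J, from the channel order and the titles in the labels, but it was not stated and there were no dye swaps. Signs of the values would turn with the direction, whereas correlations between genes would not. A ratio gives no level, so presence of the tissue's transcripts could not be checked from these values. Arrays of 2 groups stood apart from the rest. The first array group held 7 strains (BXD38, BXD36, BXD28, BXD23, BXD20, BXD8 and BXD6), with scores of 0.27 to 0.32 on the first principal component against −0.21 to 0.05 for the other arrays. The second array group held 8 strains (BXD42, BXD40, BXD39, BXD34, BXD33, BXD27, BXD22 and BXD15), with scores of 0.25 to 0.32 on the second component against −0.22 to 0.08. The remaining 16 arrays were all from strains numbered up to 32. The labels name no batch, and these groups were found in the data. Correlations are therefore given within array groups, that is after each group's mean was subtracted, with the overall value beside them.

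Sequence upstream of the start was available in the RefSeq promoter table (build GRCm38.p6) for 5 of the 9 genes. The 250 bases before the most upstream start are shown for the 3 genes among these with a correlation of 0.4 or more with Cbln1 over strains (Neurod1, Zic1 and Pcp2). They are also shown for Cbln3, whose correlation with Cbln1 within array groups was near 0. All 4 lie on the minus strand and are written 5′ to 3′, and capitals mark matches on either strand to the E-box CANNTG, bound by basic helix-loop-helix factors such as the product of Neurod1, or to AGGTCA, the half-site of nuclear receptors such as ROR-alpha.
Neurod1, chr2:79456637-79456886: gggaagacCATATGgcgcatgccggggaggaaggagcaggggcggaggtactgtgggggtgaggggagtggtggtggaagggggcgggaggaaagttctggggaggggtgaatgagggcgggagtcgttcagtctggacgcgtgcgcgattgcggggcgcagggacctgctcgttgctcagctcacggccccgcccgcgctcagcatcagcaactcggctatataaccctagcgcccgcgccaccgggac
Zic1, chr9:91365769-91366018: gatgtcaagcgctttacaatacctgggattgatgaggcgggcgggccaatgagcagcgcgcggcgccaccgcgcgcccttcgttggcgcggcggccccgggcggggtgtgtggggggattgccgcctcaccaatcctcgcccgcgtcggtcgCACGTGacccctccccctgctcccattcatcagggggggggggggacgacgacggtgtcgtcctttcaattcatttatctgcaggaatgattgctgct
Pcp2, chr8:3625548-3625797: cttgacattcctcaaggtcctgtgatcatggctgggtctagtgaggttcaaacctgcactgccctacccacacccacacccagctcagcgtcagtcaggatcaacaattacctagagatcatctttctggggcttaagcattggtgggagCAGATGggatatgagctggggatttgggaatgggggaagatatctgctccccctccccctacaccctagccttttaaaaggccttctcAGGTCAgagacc
Cbln3, chr14:55884257-55884506: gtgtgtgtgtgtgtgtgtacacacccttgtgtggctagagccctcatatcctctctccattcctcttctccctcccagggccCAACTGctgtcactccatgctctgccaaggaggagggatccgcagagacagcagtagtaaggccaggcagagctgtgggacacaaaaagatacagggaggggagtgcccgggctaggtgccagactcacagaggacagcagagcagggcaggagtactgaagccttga
Each of the 4 windows held 1 E-box, at 242 to 237 bases before the start in Neurod1, 98 to 93 in Zic1, 100 to 95 in Pcp2 and 168 to 163 in Cbln3. A match was present in 66.1% of 27025 windows of the same length in the table. AGGTCA was found in Pcp2 alone of these windows, at 12 to 7 bases before the start, and in 13.8% of all windows. GGGTGGTC, a site of the Gli and Zic type of zinc finger, was in none of the 4 windows and in 0.673% of all. The window of Pvalb, not printed, held no match to any of the 3 motifs. A match is a description of these letters and not a binding site.

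Among granule cell genes, Neurod1, Cbln1 and Zic1 had log ratios above 0 in most strains, while Cbln3 did not. Neurod1 ran from −0.37 in BXD8 through a median of 0.49 to 0.84 in BXD18, with 27 of 31 strains above 0. The mean was 0.42 ± 0.05 (SE, n = 31), with a limma adjusted p of 4.59e-09. Cbln1 ran from −0.12 in BXD8 through 0.37 to 0.91 in BXD22, with 30 of 31 strains above 0. The mean was 0.41 ± 0.04 (SE, n = 31), with a limma adjusted p of 3.53e-10. BXD8 was thus the lowest strain for both genes and the only one below 0 for Cbln1. Zic1 had the widest spread of the 9 genes, from −0.45 in BXD36 through 0.29 to 1.28 in BXD32, with an SD of 0.39 that exceeded that of 81.3% of named genes. Its mean was 0.28 ± 0.07 (SE, n = 31; limma adjusted p = 0.000370) with 25 strains above 0. Cbln3 ran from −1.04 in BXD6 through −0.03 to 0.65 in BXD22, and its mean of −0.09 ± 0.06 did not pass the test (SE, n = 31; limma adjusted p = 0.167). As the unweighted mean of array group means it was −0.12 and passed (limma adjusted p = 0.0102), and without the first array group it was 0.036 (limma adjusted p = 0.497). The lowest and highest strains of Cbln3 were thus a first-group and a second-group strain.

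Of the Purkinje cell genes, Pcp2 had a positive mean that passed, and the means of Calb1 and Car8 did not pass. Pcp2 ran from −0.24 in BXD9 through 0.11 to 0.59 in BXD23, with 27 strains above 0. The mean was 0.14 ± 0.04 (SE, n = 31), with a limma adjusted p of 0.000500. In the 16 remaining arrays alone Pcp2 had 0.095 and did not pass (limma adjusted p = 0.0838), and with the mean of named spots at the same place in a run of 8 spots subtracted it had 0.081 (limma adjusted p = 0.0400). Calb1 ran from −0.82 in BXD8 through 0.01 to 0.26 in BXD31 and averaged −0.02 ± 0.04 (SE, n = 31; limma adjusted p = 0.709), with 16 strains above and 15 below 0. With the same subtraction Calb1 had −0.09 and passed (limma adjusted p = 0.0322). Car8 ran from −0.54 in BXD32 through −0.04 to 0.60 in BXD28, with 25 strains below 0. The mean was −0.07 ± 0.04 (SE, n = 31), with a limma adjusted p of 0.0686. Pcp2 and Car8 were the least variable of the 9 genes, with SDs of 0.19 each, against a median SD of 0.27 over named genes. Pvalb ran from −0.64 in BXD38 through −0.19 to 0.32 in BXD5, with 25 strains below 0. The mean was −0.19 ± 0.04 (SE, n = 31), with a limma adjusted p of 7.16e-05. In the 16 remaining arrays alone it was −0.05 and did not pass (limma adjusted p = 0.238). En2 ran from −0.81 in BXD38 through −0.05 to 0.51 in BXD31, and its mean of −0.03 ± 0.05 did not pass the test (SE, n = 31; limma adjusted p = 0.606). The sign for En2 turned without the first array group, to 0.077 (limma adjusted p = 0.0417), and was 0.14 in the 16 remaining arrays alone (limma adjusted p = 0.00759). As the unweighted mean of the array group means it was −0.10 (limma adjusted p = 0.0123), so that En2 passed in either direction with the weight given to the array groups. Car8 passed without the first array group, at −0.10 (limma adjusted p = 0.00554), in the 16 remaining arrays alone, at −0.15 (limma adjusted p = 0.00145), and with each array centred on its median, at −0.083 (limma adjusted p = 0.0327). It did not pass as the unweighted mean of array group means, at −0.04 (limma adjusted p = 0.295).

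Of the 9 genes, 4 had a positive mean that passed the test and 1, Pvalb, a negative one. Over all 21262 features 42.1% were called positive and 33.9% negative, 76.1% in all, so these counts lie near the background. The sign for Pvalb turned when the place of the spot was taken into account. Its probe is at the eighth place in a run of 8 spots, where the 2182 named spots had a mean of −0.51 against −0.01 to 0.08 at the other places. After the mean of named spots at the same place was subtracted on each array, Pvalb had 0.32 (limma adjusted p = 1.43e-07). No other member lay at that place. When the test asked for more than a 1.2-fold change, Neurod1 and Cbln1 passed and Zic1, Pcp2 and Pvalb did not.

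**Figure D1:**
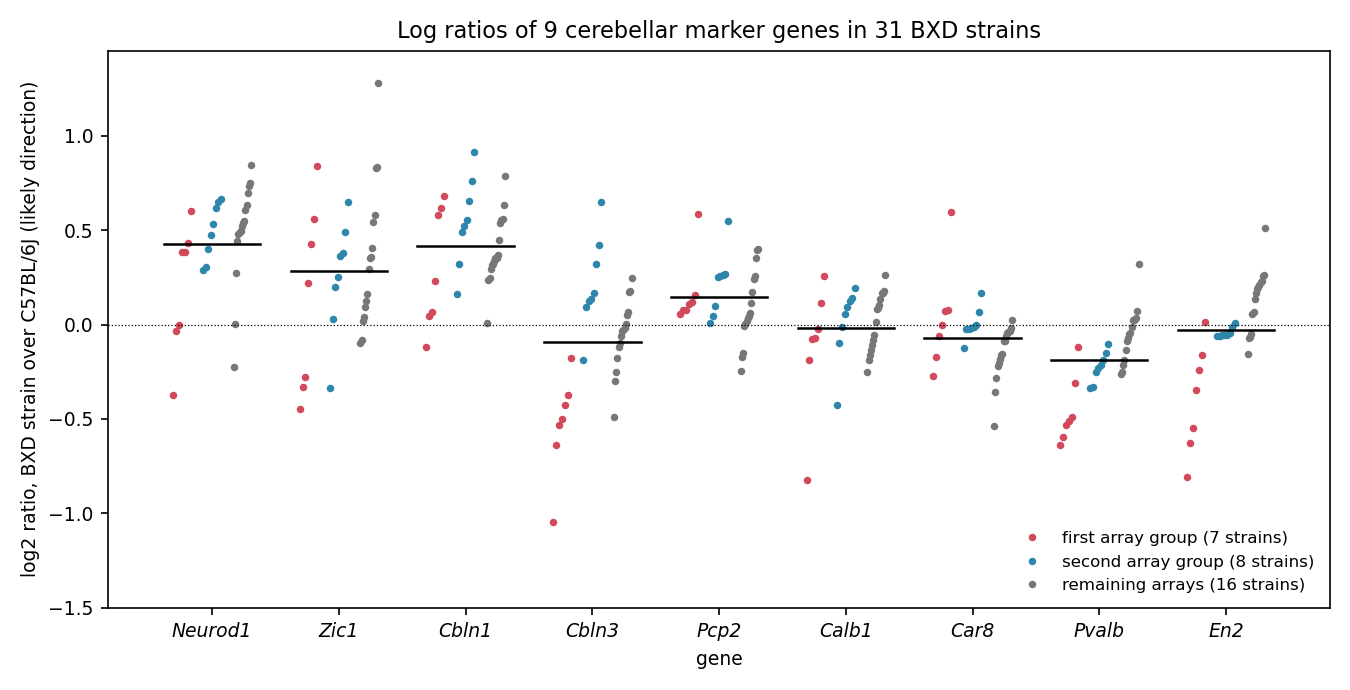
Log2 ratio of each gene (y axis) in each of the 31 strains, 1 point a strain, with the first array group, the second array group and the remaining arrays side by side for each gene (x axis) and the mean over 31 strains as a line. Neurod1 and Cbln1 have means of 0.42 and 0.41, and for Cbln3, Pvalb and En2 the first array group lies lowest.

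The share of variance that lay between array groups split the genes clearly. It was 60.0% for Cbln3 and 59.3% each for Pvalb and En2, against a median of 33.9% over named genes. It was lower for the other 6, at 21.5% for Car8, 18.8% for Neurod1, 13.5% for Cbln1, 8.01% for Pcp2, 6.13% for Calb1 and 5.22% for Zic1. Cbln3 ran from −1.04 through −0.50 to −0.17 in the first array group, from −0.19 through 0.15 to 0.65 in the second and from −0.49 through −0.03 to 0.24 in the remaining 16. The first group lay below the second except for BXD36 of the first (−0.17) and BXD15 of the second (−0.19). Pvalb had medians of −0.51, −0.22 and −0.05, and En2 of −0.35, −0.05 and 0.18, in the same order of groups. Both genes were lowest in the first group and highest in the remaining arrays, with overlapping ranges. Because the groups were drawn from the values of all genes, these differences are descriptions without a test.

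Covariation over strains was measured next, for the 36 pairs that the 9 genes form. Within array groups the mean r was 0.198, with 29 pairs above 0, against a mean of 0.000912 over 113937060 pairs of named genes. An r of 0.4 or more was reached by 7 of the 36 pairs and by 3.96% of all pairs of named genes. These 7 pairs were Neurod1 with Cbln1, Cbln1 with Zic1, Neurod1 with Zic1, Cbln1 with Pcp2, Pcp2 with Zic1, En2 with Pvalb, and Calb1 with Car8. After adjustment over all features, in a limma fit of every feature on each member, none of the 36 pairs passed, against 0.0371% of tests called positive and 0.0287% negative over all 9 fits. In simulated data this fit recovered 28.5% of 200 features planted at a correlation of 0.6, and 99.5% at 0.8. A pair with an r near 0.6 can thus fail to pass. The recovery was counted in a single fit with 200 true features, so it is not the recovery of a pair, which had to pass in both fits. At an unadjusted p under 0.05 in both fits of a pair, the same 7 pairs were counted, all positive, against 4.99% of tests positive and 5.04% negative over all 9 fits. These shares of tests count single fits, not both fits of a pair. Without the array group term the mean r was 0.235. An r of 0.4 or more was then reached by 7 pairs, in part other ones, and by 10.8% of all pairs of named genes. Permutation p-values are from 100000 resamples within array groups, two-sided, and are not adjusted for the 36 pairs.

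Cbln1 and Neurod1 gave the highest value, with r = 0.656 (permutation p = 0.00018) and rho = 0.60 (permutation p = 0.00308) over 31 strains within array groups. Only 0.148% of all pairs of named genes had so high an r. Among 15095 other named genes, Neurod1 had place 5 by r with Cbln1, and Cbln1 had place 3 by r with Neurod1. It was positive in each array group, with r of 0.743 in the first, 0.534 in the second and 0.684 in the remaining 16 strains. The overall r was 0.663. Without the 2 strains farthest from the Cbln1 median it was 0.660, and without the 2 farthest from the Neurod1 median 0.512. When each strain was left out in turn, r stayed between 0.593 (without BXD8) and 0.719 (without BXD38). The adjusted p over all features was 0.394 in the less favourable of the 2 limma fits.

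Zic1 and Pcp2 had lower values with Cbln1. Cbln1 with Zic1 had r = 0.547 (permutation p = 0.00389) and rho = 0.412 (permutation p = 0.0590), so that the rank measure did not pass. In the array groups r was 0.808 in the first, −0.00 in the second and 0.598 in the remaining strains. Neurod1 with Zic1 had r = 0.492 (permutation p = 0.0114) and rho = 0.632 (permutation p = 0.00177), again positive in the first group (0.584) and the remaining strains (0.569) but not in the second (−0.15). Cbln1 with Pcp2, a gene of the receiving cell, had r = 0.485 (permutation p = 0.00482) and rho = 0.563 (permutation p = 0.00633), and was positive in all 3 groups at 0.337, 0.528 and 0.599. Pcp2 with Zic1 had r = 0.429 (permutation p = 0.0203) and rho = 0.466 (permutation p = 0.0301), with 0.337 when BXD32 was left out. In the first group, the second group and the remaining strains this pair had 0.313, −0.05 and 0.650. Neurod1 with Pcp2 reached 0.350 (permutation p = 0.0664), with 0.574, −0.16 and 0.372 in the same order. The limma adjusted p over all features was between 0.440 and 0.791 for these 5 pairs.

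**Figure D2:**
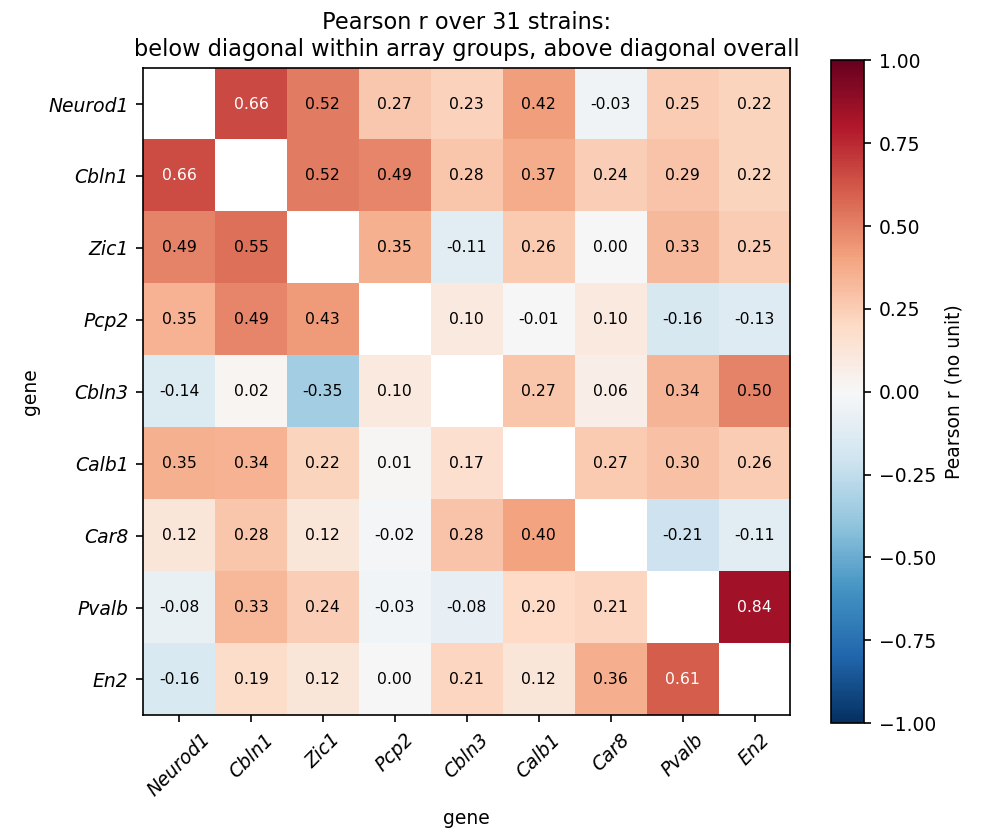
Pearson r between the 9 genes over 31 strains, with genes on both axes, values within array groups below the diagonal and overall values above it, coloured from −1 to 1. Neurod1, Cbln1, Zic1 and Pcp2 have values of 0.35 to 0.66 with each other below the diagonal, and Pvalb with En2 has 0.61 below and 0.84 above it.

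Within array groups Cbln3 had values near or below 0 with the other granule cell genes. Its r was 0.0197 with Cbln1, −0.14 with Neurod1 and −0.35 with Zic1, for which the permutation p was 0.0688. Without the array group term r was 0.279, 0.227 and −0.11 in the same order. With Calb1, a Purkinje gene, the measures within array groups differed, with r = 0.169 and rho = 0.539 (permutation p = 0.0101). Cbln3 with Zic1 was the single pair that was negative in all 3 array groups, at −0.21, −0.27 and −0.50. Cbln1 and Cbln3 had r of −0.23 in the first group, 0.823 in the second and −0.37 in the remaining strains. The difference of slopes between the groups had an unadjusted limma p of 0.0275 and an adjusted p of 0.566 and did not pass. Over all 36 pairs, 3 had an unadjusted p under 0.05 for a difference of slopes, against 8.52% of all tests, and 0 passed after adjustment, against 0.264% of all tests. The other 2 were Car8 with En2 and Car8 with Pvalb.

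**Figure D3:**
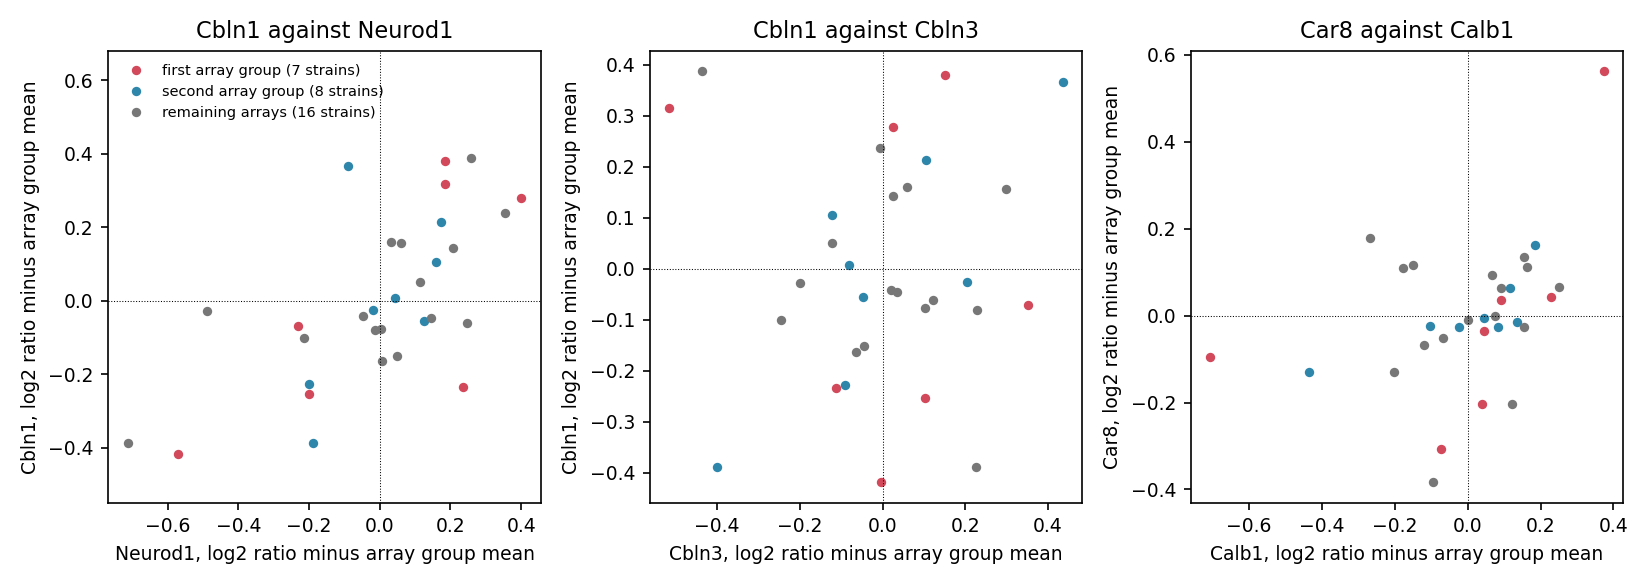
Log2 ratio minus array group mean of Cbln1 against Neurod1 (left), Cbln1 against Cbln3 (middle) and Car8 against Calb1 (right), 1 point a strain. The left panel rises (r = 0.656), the middle one shows no common slope (r = 0.0197), and in the right one (r = 0.40) BXD28 is the point at the upper right.

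Calb1 and Car8 had r = 0.40, positive in the first (0.529) and second (0.791) array groups and 0.0826 in the remaining strains. The value was 0.241 without BXD28, the highest strain for Car8. Its permutation p was 0.113 and that of rho (0.190) was 0.401. These 2 genes lie on chromosome 4 with 33 protein-coding genes between them in the RefSeq gene order. Genotypes of the strains were not used here. Cbln1 and Pcp2 are the other pair on 1 chromosome, chromosome 8, with 637 protein-coding genes between them.

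En2 and Pvalb had r = 0.607 within array groups (permutation p = 0.00194) and rho = 0.668 (permutation p = 0.00084), with 0.775, 0.245 and 0.523 in the first group, the second group and the remaining strains. With the mean of named spots at the same place subtracted, r within array groups was 0.523 (limma adjusted p = 0.331). Overall r was 0.837 (limma adjusted p = 5.92e-06), and En2 with Cbln3 had 0.50 overall (limma adjusted p = 0.0196). These were the only 2 of the 36 pairs to pass without the array group term, and En2, Pvalb and Cbln3 were the 3 members with the highest share of variance between array groups. In the overall fits on En2, 17.7% of features passed with a positive sign, and in those on Pvalb 16.3% and on Cbln3 14.7%. Over all 9 such fits 5.42% of tests were positive calls and 5.83% negative. Within array groups En2 with Cbln3 had 0.214 and did not pass (limma adjusted p = 0.745), and En2 with Pvalb had a limma adjusted p of 0.146 in the less favourable fit.

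The Purkinje and granule cell classes were set against each other. The 12 pairs of a Purkinje gene with a granule cell gene had a mean r of 0.271 within array groups, all of them above 0, from 0.0986 to 0.485. The 3 pairs of Purkinje genes had a mean of 0.131 and the 6 pairs of granule cell genes 0.205. Without the array group term the order was another, with 0.348 for granule cell pairs, 0.234 across classes and 0.12 for Purkinje pairs. In the second array group alone Purkinje pairs had 0.39, granule cell pairs 0.180 and pairs across classes 0.0826. Without Cbln3 the granule cell mean was 0.565. Without Pcp2 the remaining Purkinje pair had 0.40, and Pcp2 itself had 0.0148 with Calb1 and −0.02 with Car8. Pcp2 thus had its high values with Cbln1, Zic1 and Neurod1 and values near 0 with the other Purkinje genes. Of these high values, only that with Cbln1 was positive in each array group. In the first array group the mean across classes was 0.409 and in the remaining 16 strains 0.187. Of the 12 pairs across classes, 10 were above 0 in the first group, 7 in the second, 7 in the remaining strains and 11 without the array group term. The correlation of the 2 class means was 0.634 within array groups, with 0.927, 0.197 and 0.518 in the same 3 sets of strains.

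The Purkinje class mean ran from −0.27 in BXD8 through 0.05 to 0.30 in BXD28, and the granule cell mean from −0.32 in BXD8 through 0.27 to 0.58 in BXD32. The Purkinje mean was the lower one in 27 of 31 strains. This order holds for the chosen genes only, and the wider marker lists described below had the other order. The difference, Purkinje minus granule, ran from −0.65 in BXD32 through −0.23 to 0.15 in BXD36. Its median was 0.01 in the first array group, −0.30 in the second and −0.31 in the remaining strains, and all 24 strains outside the first group lay below 0. BXD32 was among the 3 highest strains for 6 genes (En2, Pvalb, Cbln1, Neurod1, Pcp2 and Zic1) and lowest for Car8. BXD8 was among the 3 lowest for Cbln1, Cbln3, Neurod1 and Calb1, and BXD38 for En2, Pvalb, Cbln3 and Zic1. BXD34 was among the 3 highest for Cbln1, Cbln3, Calb1 and Car8. Without BXD8 and BXD32 the mean across classes was 0.267 and the correlation of class means 0.623. When each gene was left out in turn, both values were lowest without Pcp2, at 0.237 and 0.421. Both were highest without Car8, at 0.307 and 0.657.

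**Figure D4:**
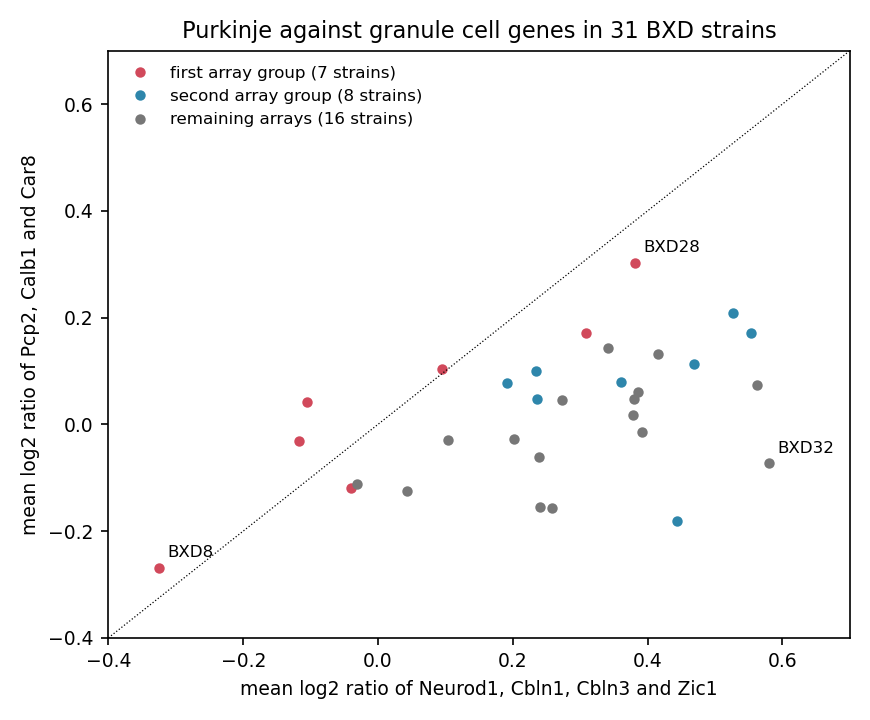
Mean log2 ratio of the Purkinje genes Pcp2, Calb1 and Car8 (y axis) against that of the granule cell genes Neurod1, Cbln1, Cbln3 and Zic1 (x axis), 1 point a strain, with the line of equal values dotted. Strains outside the first array group all lie below the line, and BXD8 is lowest on both axes.

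The gene outside the list with the highest r within array groups over 31 strains was found for each member, without correction for spot place. Its adjusted p is from the fit on that member alone, a looser rule than that for pairs of members, which had to pass in both fits. For En2 it was Scn2a, a neuronal sodium channel gene (r = 0.760, limma adjusted p = 0.00969), for Pvalb Hyou1, a chaperone of the endoplasmic reticulum (0.751, adjusted p = 0.0248), and for Car8 Cwf19l2 (0.812, adjusted p = 0.00870). Zic1 was nearest to EG114600 (0.776, adjusted p = 0.0482) and Cbln3 to Slamf6, a leukocyte receptor gene (0.727, adjusted p = 0.0492). The share of features called positive was 0.0376% in the fit on En2, 0.24% on Pvalb, 0.0376% on Car8, 0.0047% on Zic1 and 0.0141% on Cbln3. The nearest genes of Cbln1 (4930581F22Rik, 0.706), Neurod1 (Ppp3r2, 0.674), Pcp2 (Osbpl7, 0.709) and Calb1 (Tpcn1, 0.709) did not pass, with adjusted p from 0.0922 to 0.352. None of these 9 genes was in the lists of other markers.

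Other cerebellar genes were counted from lists of markers, beside the same shares of 42.1% positive and 33.9% negative over all features. The place of the spot was not taken into account in the means of list genes. Of 14 other Purkinje genes measured out of 18 listed, 6 had positive and 4 negative means, with the calcium channel gene Cacna1g at 0.33 and Rgs8, a regulator of G protein signalling, at −0.80. Of 18 other granule cell genes measured out of 22, 3 were positive and 11 negative. Among the negative ones were Mab21l1 at −1.25, the GABA-A receptor gene Gabra6 at −1.02, Nfib at −0.90 and Etv1 at −0.68. The positive ones were Gabrd at 0.16, Grin2c at 0.16 and Barhl1 at 0.11. The median below is of all 18 genes. Their median was −0.16, beside −0.006 for the other Purkinje genes and 0.03 over named genes. Among the members the granule cell class had the higher mean in most strains. Of the 4 granule cell members, Neurod1, Cbln1 and Zic1 had positive means and Cbln3 had −0.09. Of 15 genes of other cerebellar cells and of the territory measured out of 18, 5 were positive and 6 negative. Eomes, a marker of unipolar brush cells, had −1.62 and Lmx1a 0.39.

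In the 9 fits within array groups, none of these other genes was called with any member. The same held for 17 forebrain, 12 brainstem, 8 myelin and 7 choroid plexus genes, counted as markers of other tissue in a whole brain. Neurod2 was in both the granule cell and the forebrain list and was counted in each. The highest median r for any member was 0.0849 with the Purkinje list, 0.133 with the granule cell list and 0.131 with the third cerebellar list. It was 0.159 with the forebrain, 0.142 with the brainstem, 0.219 with the choroid plexus and 0.296 with the myelin list, the last for Calb1. The lowest median was −0.12 with the Purkinje list, −0.11 with the granule cell list and −0.06 with the third cerebellar list. It was −0.01 with the forebrain, −0.19 with the brainstem, −0.03 with the choroid plexus and −0.19 with the myelin list. The last 2 lists were the smallest, and a median of few genes varies more. Neurod1 had medians of −0.07 and 0.0593 with other Purkinje and granule cell genes, and Cbln1 of −0.01 and 0.100. The part of tissue composition in the covariation was not tested. Against 0, 9 forebrain genes were positive and 5 negative, 3 and 3 of the brainstem, 6 and 0 of the myelin and 5 and 2 of the choroid plexus genes.

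Strains numbered 33 to 42 were compared with those numbered up to 32. None of the 9 genes passed the test (limma, 0 of 9 adjusted p under 0.05 and 0 of 9 unadjusted), against 0.24% of features called higher and 0.24% called lower, and 20.2% at an unadjusted p under 0.05. Zic1 showed the widest gap, with a mean of 0.07 ± 0.43 in strains 33 to 42 (SD, n = 7) and 0.34 ± 0.36 in strains up to 32 (SD, n = 24), a difference of −0.28 ± 0.16 (SE; limma adjusted p = 0.318). Within array groups this difference was −0.74 in the first and −0.01 in the second. Pvalb had a mean of −0.33 ± 0.18 in strains 33 to 42 and −0.15 ± 0.21 in strains up to 32 (SD; limma adjusted p = 0.253), and with array group as a term the difference was −0.08 (limma adjusted p = 0.938). With that term 0 of 9 genes had an unadjusted p under 0.05, against 7.29% of features, and 0 of all features passed after adjustment. No strain numbered from 33 was among the remaining 16 arrays, so strain set and array group overlap in part.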

How the data were processed

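Whole-brain RNA of 31 BXD strains in channel 1 was hybridised against C57BL/6J RNA in the other channel, per the labels' protocols. The authors deposited 1 log ratio for each of 23040 spots and array, used here as log2 values. Log base, centring and direction were not stated. All arrays held the same sorted values with a median of 0.01, as after quantile normalisation. R 2.0.0 and limma are named in the submitters' processing notes without a role. Brightness of the spots was not used here, which leaves dim and saturated probes unmarked, and the number of arrays limits precision.

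Probes were named through the platform annotation (16874 with 1 symbol, 134 with several, 6032 with none), and probes of a gene were averaged, giving 21262 features. Fits used limma 3.58.1 (R 4.3.3) over all features with Benjamini-Hochberg adjustment at 0.05, two-sided. Covariation was fitted on each member with array group as a term, and a pair was called where both fits passed. Permutations, r and class means were computed in Python 3.11.15. Each fit was tested on simulated data. There the covariation fit within array groups, as a single fit, recovered 28.5% of 200 planted features at a correlation of 0.6 and 99.5% at 0.8. The rule that both fits of a pair pass was not simulated. Array groups were read from the first 2 principal components. All 9 members are named; the nearest gene is the one with the highest r, and list examples had the smallest adjusted p. Members and lists were chosen with earlier results of these data known. Alternatives covered centring, place of the spot, array groups, strains, probes and ranks.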

Additional observations from a re-analysis of the deposited data

Results flagged for a closer look

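Some single strains lay far from the other strains of their set, by the ratio of the gap to the nearest strain over the whole range of the set. Chance marks about 1 in 20 sets. Calb1 in BXD8 had −0.82 in the first array group (n = 7), with the nearest strain at −0.19. BXD8 was also the lowest strain for Cbln1 and Neurod1. Calb1 in BXD40 had −0.43 in the second array group (n = 8), with the nearest strain at −0.10. Car8 in BXD28 had 0.60 in the first array group (n = 7), with the nearest strain at 0.08. The correlation of Car8 with Calb1 was 0.40 with this strain and 0.241 without it. Pcp2 in BXD23 had 0.59 in the first array group (n = 7), with the nearest strain at 0.16. En2 in BXD38 had −0.81 among strains 33 to 42 (n = 7), with the nearest strain at −0.24. Of the other 6 strains in that set, 5 are in the second array group, and within the first array group BXD20 (−0.63) and BXD23 (−0.55) lay nearer to it. Each strain had 1 array, so a repeat of these values was not available in the arrays used.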

How the results depend on the processing

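Of the 9 means, 4 positive and 1 negative passed. Against a change of 1.2-fold, 2 positive and 0 negative passed, with no share over all features counted. The negative count was 2 with each array centred on its median, 3 with the unweighted mean of array group means and 2 without the first array group. For these runs too no share over all features was counted, so the counts cannot be set against a background. En2 changed sign to 0.077 without the first array group and to 0.14 in the remaining arrays alone, and Pvalb to 0.32 with the mean of named spots at the same place subtracted. In the remaining arrays alone Pvalb (−0.05) and Pcp2 (0.095) no longer passed. The unweighted mean of array group means gave passing values of −0.10 for En2 and −0.12 for Cbln3. The cause was not tested. No pair passed within array groups, where a single fit recovered 28.5% of simulated features planted at a correlation of 0.6 and a pair had to pass in both fits. With the array group term left out, 2 positive pairs passed. The mean r across the Purkinje and granule cell classes was 0.271, with 0.409 in the first array group alone and 0.0826 in the second alone, where both classes had higher means of their own. The differences between strains 33 to 42 and strains up to 32 gave no call in any alternative run. Centring each array on its median and taking each probe as its own feature could not change these differences. All arrays had the same median, and each member had 1 probe. Leaving out each strain in turn, the pairs with r of 0.4 or more, and leaving out BXD8 and BXD32, were chosen after seeing the data. No paired analysis was possible because the labels give no replicate numbers and each strain has 1 array.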

Other observations

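En2 was almost constant over the 8 strains of the second array group, from −0.06 to 0.01, with an SD of 0.0252. Only 0.0199% of named genes had an SD as low there, where the median SD was 0.138. In the first array group its SD was 0.287, above the median of 0.220.

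Single genes of the other lists had higher r with a member than most members had with each other, although none passed after adjustment. They are the highest of many values, over all lists and all 9 members. Of all pairs of named genes, 0.739% had an r of 0.5475 or more within array groups. The highest list value was 0.625, for En2 with Grm2. Cbln3 had 0.602 with Hoxb6 and Pvalb had 0.587 with Emx1. Within array groups Neurod1 had 0.587 with Homer3, a postsynaptic scaffold gene of Purkinje cells, and Zic1 had 0.551 with Nfia and 0.604 with the dopamine receptor gene Drd1. Calb1 had 0.561 with the myelin gene Mbp and 0.560 with Barhl1.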
